A study of Mus musculus with 6 samples.

Results

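The mouse genes Adi1, Cep164, Chic1, Esco1, Hspb7 and Riok3, each had at least 1 microarray probe set that was higher and 1 that was lower in uteri labelled Stat3 d/d than in uteri labelled Stat3 f/f. They were chosen by that direction of the group means, and all probe sets annotated to them were taken: 13 probe sets, 7 higher and 6 lower, among 1382 probe sets and 987 named genes. The uteri came from female mice at 3.5 days post coitum, 3 arrays for Stat3 d/d and 3 for Stat3 f/f. The labels write the alleles of Stat3 as d and f, read here as deleted and floxed. They name neither the Cre driver nor the cells that lose the gene, and give neither the age of the animals nor whether an array read 1 animal or several, so spreads between arrays may be technical. Values are normalized probe set intensities on a linear scale.

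A probe set is a group of short probes that together read one stretch of a transcript. On expression arrays of this type the probes lie mostly toward the 3′ end of the transcript, and probe sets of 1 gene can read different transcript variants, such as those with another last exon, another polyadenylation site or a retained intron. Opposite movement of 2 probe sets then describes 2 stretches of sequence, and neither one alone gives the level of the gene. The 13 probe sets are described side by side as readings of possible variants. Which variant each one reads was not determined here, as probe sequences were not used. Levels of different probe sets are not compared with each other, since probes differ in how strongly they bind.

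The 1382 probe sets had been selected on this very comparison before deposit: 100% of them had groups that did not overlap, and 100% passed limma's moderated test at an adjusted p of 0.05. The 13 probe sets likewise had 0 overlaps between groups, a count from which nothing is read. In the whole table, 67.4% of probe sets had the higher mean in Stat3 d/d and 32.6% the lower. Because the choice of the 6 genes used this contrast, their changes are given as descriptions, without a test. The smallest fold between group means in the table was 1.50 and the smallest among the 13 were 1.52 (Chic1), 1.53 (Adi1) and 1.55 (Cep164); probe sets under this limit are not in the table, so values just outside it were not seen. Stat3 itself was lower on both of its probe sets, at 41.0% and 42.6% of the Stat3 f/f level. Of 10 uterus markers only Pgr, the progesterone receptor gene, was in the table. Its brightest probe set had 694 ± 43.9 in Stat3 d/d and 1261 ± 305 in Stat3 f/f (SD, n = 3 each). All 3 Pgr probe sets were lower, with log2 changes from -0.60 to -0.84, the latter on the brightest. The other uterus markers were not analysed here.

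Esco1 encodes an acetyltransferase that modifies the cohesin subunit SMC3 and thereby helps cohesin hold and fold chromosomes. Its probe set 1424324_at read 78.5, 71.9 and 72.6 on the Stat3 d/d arrays, against 13.2, 9.94 and 14.9 on the Stat3 f/f arrays. Every Stat3 d/d array was thus at least 4.84 times the highest Stat3 f/f array. The means were 5.87-fold apart, a log2 change of 2.48 (SE 0.18). Its other probe set, 1424325_at, read 17.0, 21.5 and 13.5 on the Stat3 d/d arrays, against 39.7, 39.8 and 35.8 on the Stat3 f/f arrays. Here the Stat3 d/d arrays were the low ones and the spread among them was the wider. That mean was 2.21-fold lower, a log2 change of -1.12 (SE 0.19). Both probe sets were designed from the same source sequence, according to the platform's annotation, and RefSeq lists 4 transcripts of the gene, 1 curated and 3 predicted. Log2 changes here subtract the Stat3 f/f mean from that of Stat3 d/d on the log2(intensity + 1) scale, and SEs are those of the limma fit. The Stat3 f/f values of 1424324_at were low, so the size depends on the number added. With 16 in place of 1 the log2 change was 1.66 for 1424324_at and -0.71 for 1424325_at.

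Riok3 encodes an atypical kinase of the RIO family, known in human cells for a part in maturing the small ribosomal subunit and in signalling by the RNA sensor MDA5. Probe set 1460670_at read 116, 116 and 118 on the Stat3 d/d arrays, against 22.6, 25.4 and 24.7 on the Stat3 f/f arrays. Its Stat3 d/d values had the narrowest spread of all 13 probe sets, a coefficient of variation of 0.79%. The means were 4.81-fold apart, a log2 change of 2.22 (SE 0.16). Probe set 1422650_a_at read 62.9, 58.1 and 58.8 on the Stat3 d/d arrays, against 109, 104 and 141 on the Stat3 f/f arrays. The Stat3 d/d arrays were again close together and low, and replicate 4 was the highest of the Stat3 f/f arrays. The mean was 1.97-fold lower (log2 change -0.95, SE 0.18). This probe set carries the suffix _a_at, which Affymetrix gives to probes shared by alternative transcripts of 1 gene. As with Esco1, both probe sets share their source sequence, and RefSeq lists 5 transcripts, 1 curated and 4 predicted.

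Esco1 and Riok3 both lie on chromosome 18, with 25 annotated genes between them in assembly GRCm38.p6, of which 7 are protein-coding. Of those 25 genes, 1 was in the table, Abhd3, at a log2 change of 0.62.

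Adi1 encodes acireductone dioxygenase, an enzyme of the methionine salvage pathway, which rebuilds methionine from the by-product of polyamine synthesis. It was the only one of the 6 genes with 3 probe sets in the selected table. Any further probe sets of the 6 genes that missed the selection were not seen. Probe set 1438758_at read 126, 137 and 133 on the Stat3 d/d arrays, against 17.5, 15.0 and 22.1 on the Stat3 f/f arrays. This was the largest ratio of the 13, with means 7.26-fold apart and a log2 change of 2.81 (SE 0.18). Probe set 1438759_x_at comes from the same source sequence and read 111, 89.3 and 114 on the Stat3 d/d arrays, against 71.7, 60.5 and 73.0 on the Stat3 f/f arrays. It went the same way by less, 1.53-fold (log2 change 0.60, SE 0.18). Probe set 1449076_x_at, from another source sequence, read 121, 151 and 108 on the Stat3 d/d arrays, against 246, 185 and 224 on the Stat3 f/f arrays. It was the one that was lower, 1.73-fold (log2 change -0.79, SE 0.19). The suffix _x_at on the last 2 marks probe sets in which some probes also match other sequences. RefSeq lists 1 transcript of Adi1.

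Hspb7 encodes a small heat shock protein best known from heart and skeletal muscle, where it works as a chaperone. Probe set 1434927_at read 67.5, 73.4 and 73.0 on the Stat3 d/d arrays, against 22.3, 26.8 and 28.5 on the Stat3 f/f arrays. The lowest Stat3 d/d array was 2.37 times the highest Stat3 f/f array, and the means were 2.76-fold apart (log2 change 1.43, SE 0.17). Probe set 1421289_at read 6.39, 6.55 and 6.41 on the Stat3 d/d arrays, against 10.4, 10.5 and 9.85 on the Stat3 f/f arrays. It was 1.59-fold lower (log2 change -0.60, SE 0.15). With a mean of 8.36 over all arrays it was the dimmest of the 13, while the median probe set of the table had a mean of 32.8, and whether it stood above background on these arrays was not tested. RefSeq lists 1 transcript of Hspb7. Of 12 smooth muscle markers 1 was in the table, Synpo2, at 41.0 ± 4.39 in Stat3 d/d and 24.1 ± 4.96 in Stat3 f/f (SD, n = 3 each). Its part in the Hspb7 readings was not tested.

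Cep164 encodes a protein of the distal appendages of the mother centriole, where it is needed to dock the centriole at the membrane and start a cilium. Probe set 1435676_at read 41.8, 43.6 and 49.8 on the Stat3 d/d arrays, against 29.4, 23.9 and 33.6 on the Stat3 f/f arrays. The groups were separate but near each other, with means 1.55-fold apart (log2 change 0.63, SE 0.18). Probe set 1447278_at read 23.2, 23.9 and 31.7 on the Stat3 d/d arrays, against 52.9, 42.8 and 41.2 on the Stat3 f/f arrays. It was 1.74-fold lower (log2 change -0.78, SE 0.19). The 2 come from different source sequences. RefSeq lists more transcripts for Cep164 than for the other 5 genes, 16 in all, of which 1 is curated and 15 are predicted. Of 7 ciliated cell markers, 0 were in the table.

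Chic1 encodes a cysteine-rich protein with a hydrophobic domain that associates with membranes, and its gene lies near Xist in the X-inactivation centre. Probe set 1440522_at read 44.0, 43.1 and 45.8 on the Stat3 d/d arrays, against 28.0, 22.7 and 36.9 on the Stat3 f/f arrays. It had the smallest ratio of the 13, 1.52-fold (log2 change 0.61, SE 0.20). Probe set 1439300_at read 10.6, 5.73 and 13.8 on the Stat3 d/d arrays, against 46.4, 28.7 and 46.5 on the Stat3 f/f arrays. Its mean was 4.04-fold lower (log2 change -1.95, SE 0.29), the largest decrease of the 6 lower probe sets, and its arrays spread the most, with a coefficient of variation of 40.6% in Stat3 d/d and 25.3% in Stat3 f/f. Its Stat3 d/d values were dim, so the size depends on the pseudocount. With 16 in place of 1 the log2 change was -1.11, still the largest decrease of the 6. Replicate 2 was the lowest array in both groups. The 2 probe sets come from different source sequences, and RefSeq lists 2 transcripts, 1 curated and 1 predicted.

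**Figure D1:**
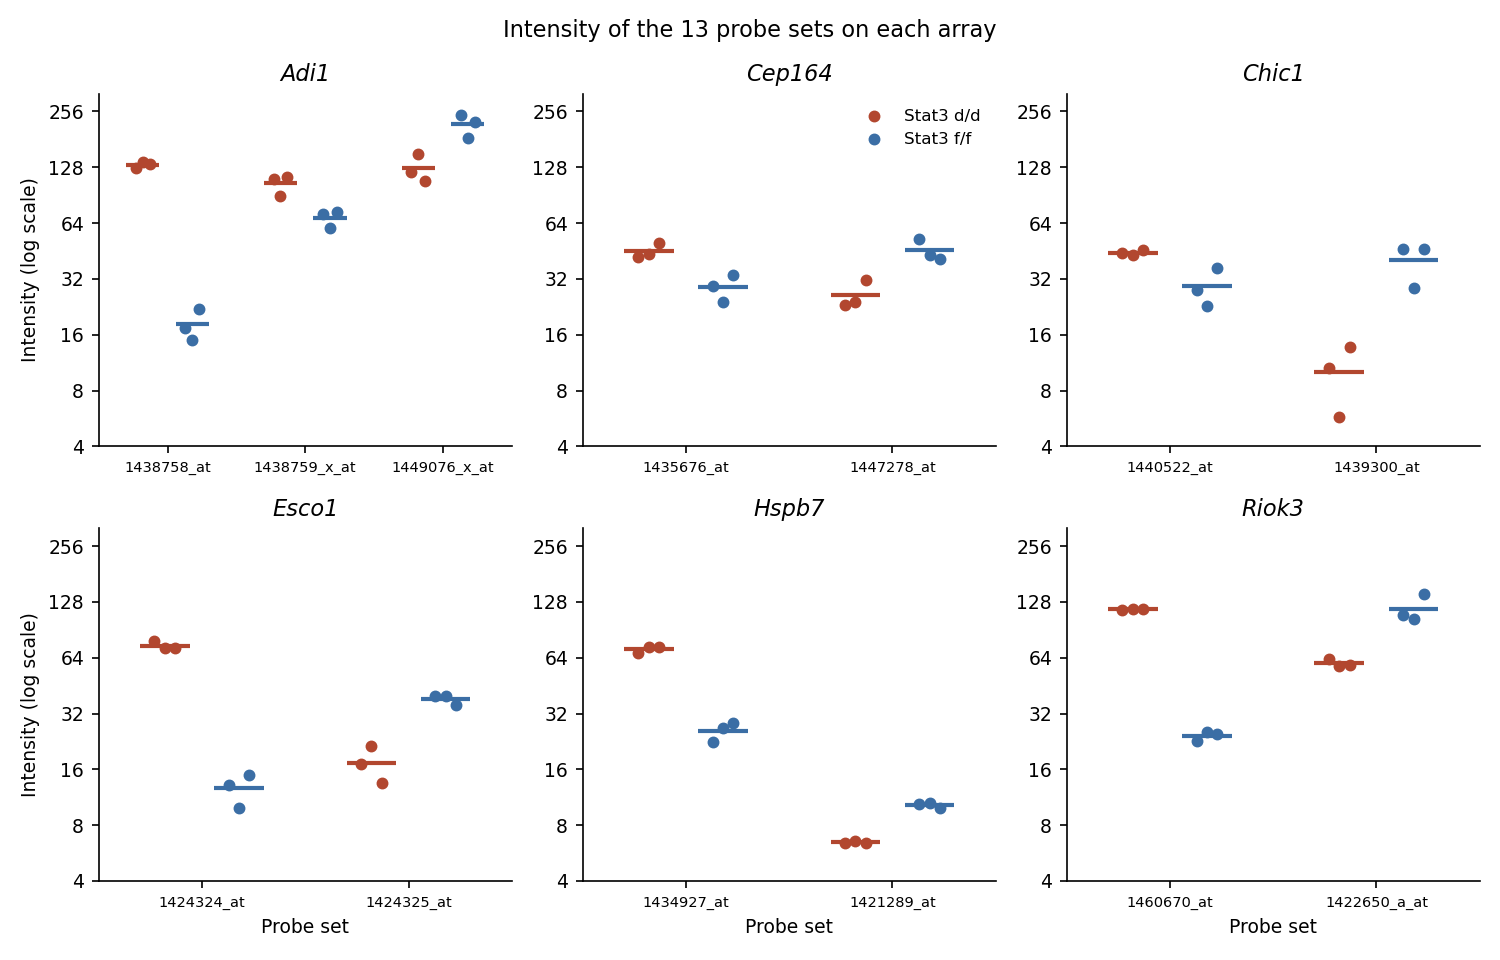
Normalized intensity (log scale) of each of the 13 probe sets on each array, in 1 panel per gene, with Stat3 d/d in red and Stat3 f/f in blue (3 arrays each). Lines are arithmetic means; in each gene the Stat3 d/d points lie above the Stat3 f/f points for at least 1 probe set and below them for another, with no overlap.

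Of the 13 probe sets, 4 had means at least 4-fold apart, Adi1 1438758_at, Esco1 1424324_at, Riok3 1460670_at and Chic1 1439300_at, where 8.18% of the whole table did. The median log2 change of the 13 was 0.60, beside 0.70 over the table. Neither share nor median is evidence about the 6 genes, as both come from the contrast that chose them.

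How far the opposed probe sets of a gene moved apart can be measured within each array, as the log2 intensity of the higher probe set minus that of the lower one. A scale factor of an array cancels in this gap only in part, because 1 was added to each intensity before the log. The remainder is largest for dim probe sets. For Esco1 the gap was 3.60 larger in Stat3 d/d than in Stat3 f/f, with an SD of 0.33 between Stat3 d/d arrays and 0.34 between Stat3 f/f arrays (n = 3 each) and a relative change of 12.2-fold between the 2 stretches on the log2(intensity + 1) scale. For Riok3 it was 3.17 larger, with an SD of 0.07 in Stat3 d/d and 0.24 in Stat3 f/f, a relative change of 9.01-fold. Chic1 followed at 2.56 (SD 0.54 in Stat3 d/d and 0.22 in Stat3 f/f), although there the lower probe set accounts for most of the gap. The gap of Hspb7 was 2.03 larger (SD 0.06 in Stat3 d/d and 0.21 in Stat3 f/f). The smallest were Cep164 at 1.41 (SD 0.11 in Stat3 d/d and 0.31 in Stat3 f/f) and Adi1 at 1.39 (SD 0.43 in Stat3 d/d and 0.10 in Stat3 f/f). These sizes depend on the pseudocount: with 16 in place of 1 the gap change was 2.37 for Esco1, 1.54 for Chic1 and 1.29 for Hspb7. For Adi1 the gap uses the brighter of its higher probe sets, 1438759_x_at, and with the mean of both higher probe sets it was 2.50. Cep164 and Adi1 differed in this by less than the spread between arrays; the order of the other 4 was not tested.

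**Figure D2:**
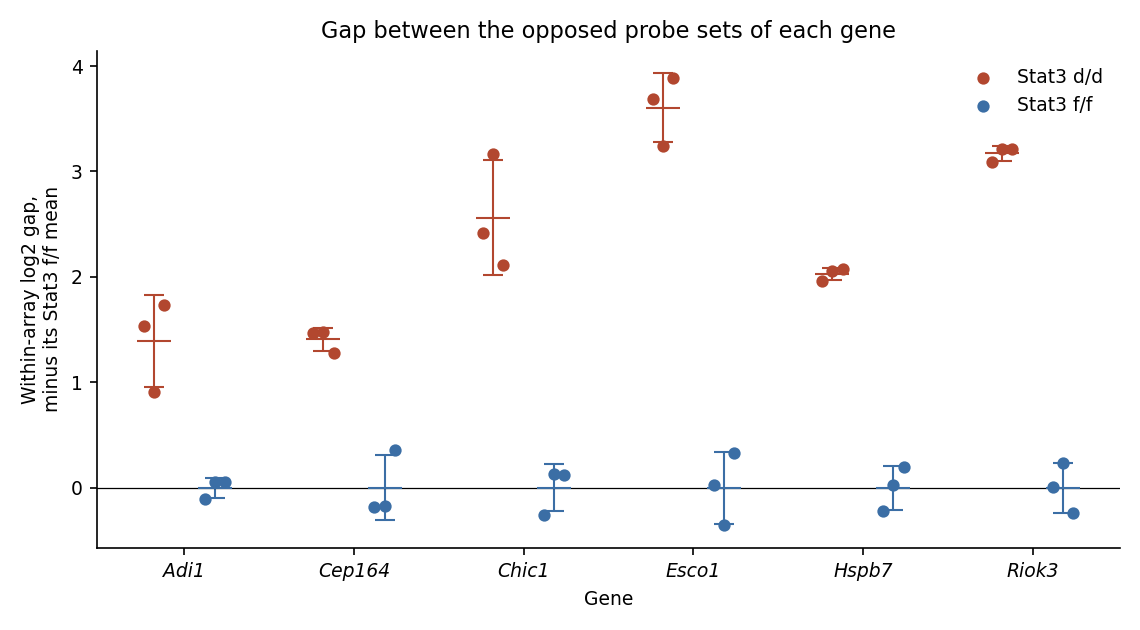
Within-array log2 gap between the opposed probe sets of each gene, minus its Stat3 f/f mean, with Stat3 d/d in red and Stat3 f/f in blue. Points are arrays and bars the mean ± SD (n = 3); the Stat3 d/d points sit between 0.91 (Adi1) and 3.88 (Esco1), and the Stat3 f/f points between -0.35 (Esco1) and 0.36 (Cep164).

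The change of a single probe set depends on how the arrays are scaled, more than the gap does. Centring each array on its median in the table lowered every change by 0.47, and quantile normalization lowered the median change of the table by 0.45. All 13 probe sets kept their direction under both. For centring this follows from the sizes, as its shift was less than the smallest increase of the 13, 0.60. The 3 smallest increases became slight: after median centring the log2 change was 0.14 for Adi1 1438759_x_at, 0.16 for Cep164 1435676_at and 0.14 for Chic1 1440522_at, and after quantile normalization it was 0.23, 0.13 and 0.12. The other 4 increases stayed at 0.97 or more after median centring, the lowest being Hspb7 1434927_at. For Cep164 and Chic1, the log2 change of the lower probe set was -0.78 or lower under each scaling, whereas that of the higher one was 0.16 or less under 2 of the 3 scalings. The deposited values had already been quantile normalized in RMA, per the submitters' notes. Both rescalings here rest on the selected probe sets only, of which 67.4% were higher in Stat3 d/d. A lowering of the changes can follow from that imbalance alone, and the selected table does not show how much of it does.

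**Figure D3:**
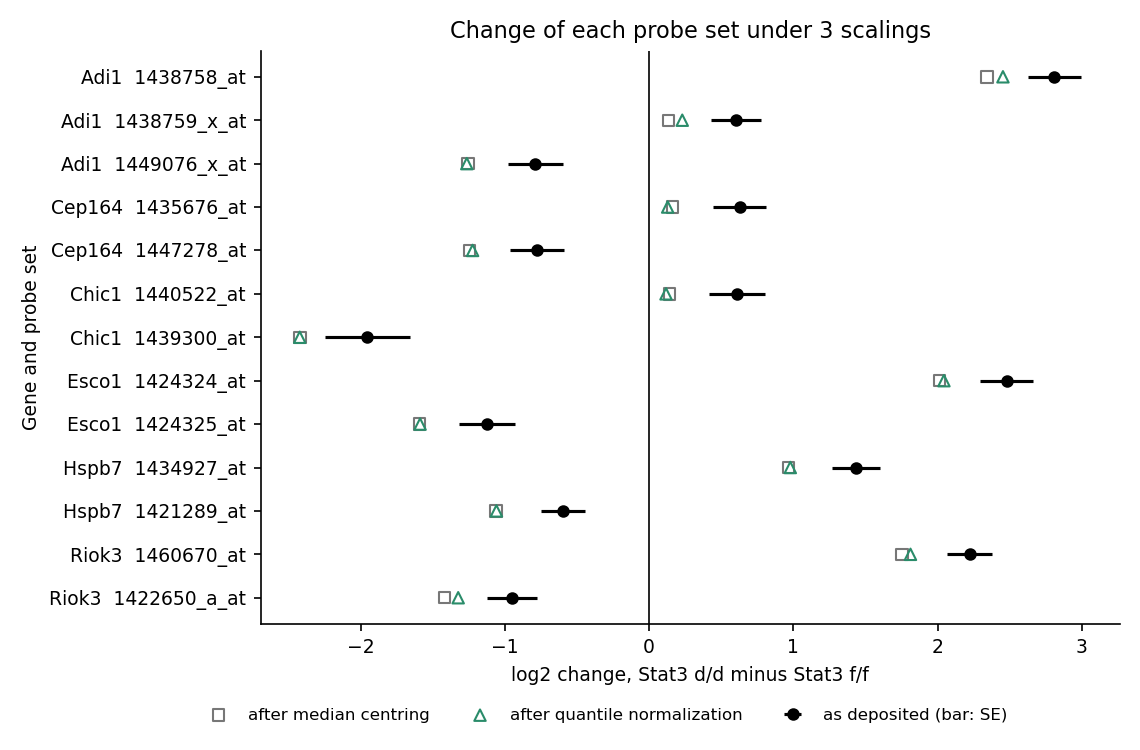
Log2 change, Stat3 d/d minus Stat3 f/f, of each of the 13 probe sets as deposited (black, bar SE), after median centring of each array (grey squares) and after quantile normalization (green triangles). All 13 keep their side of zero, and the smaller increases of Adi1, Cep164 and Chic1 lie between 0.12 and 0.23 after either rescaling.

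Replicates of the 13 probe sets varied by an SD of 0.01 to 0.58 in Stat3 d/d and 0.05 to 0.39 in Stat3 f/f on the log2 scale, around table medians of 0.17 in Stat3 d/d and 0.22 in Stat3 f/f. The spread was smaller in Stat3 d/d for 8 of 13 probe sets, and for 61.4% of the table. Replicate 2 was the lowest Stat3 f/f array for 8 of the 13, and for 39.9% of the table. Within groups, opposed probe sets of a gene did not vary as mirror images throughout. Over deviations from the group means on the 6 arrays, Pearson's r of the opposed pair was 0.55 for Chic1, 0.36 for Cep164, 0.13 for Riok3, -0.21 for Esco1 and -0.46 for Hspb7. For Adi1 it was 0.44 and -0.23 between the lower probe set and the 2 higher ones. These correlations rest on few arrays that share a joint normalization and are descriptions only.

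Among genes with several probe sets in the selected table, opposite directions were the less common pattern. Of 163 such genes, 15 (9.20%) had probe sets in both directions, the 6 described here and 9 others. Probe sets that missed the selection do not enter this share. In the other 148 genes every probe set went one way, up in 107 and down in 41, and the highest and lowest changes of a gene differed by a median of 0.27 log2 units. Differences in size alone could still be as large: in 8 of these 148 genes the highest and lowest changes lay further apart than in Cep164, the least of the 6 genes by this measure at 1.41, and the widest differed by 3.18. By the same measure Adi1 spread over 3.60, from 1438758_at to 1449076_x_at. Among the 15 genes, Esco1 and Riok3 ranked 3 and 4 by the change of the gap between the brightest probe sets of each direction. With a pseudocount of 16 Riok3 (2.53) came before Esco1 (2.37). With a pseudocount of 1 the wider opposed pair of Adi1, which the ranking does not use, lay above Riok3. Ahead of Esco1 and Riok3 were Xaf1, an interferon-induced gene linked to apoptosis, at 5.87, and Trim34a, a tripartite motif gene whose probe sets changed by 3.39 and -0.61. The lower Trim34a probe set was dim, at 4.62 to 5.52 in Stat3 d/d and 6.46 to 9.96 in Stat3 f/f. Whether it stood above background was not tested. Next after Riok3 was Mapk8, which encodes the kinase JNK1, with a gap change of 2.91. The opposed probe sets shared a source sequence in 4 of the 15 genes, 2 of the 6 described here and 2 of the 9 others.

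**Figure D4:**
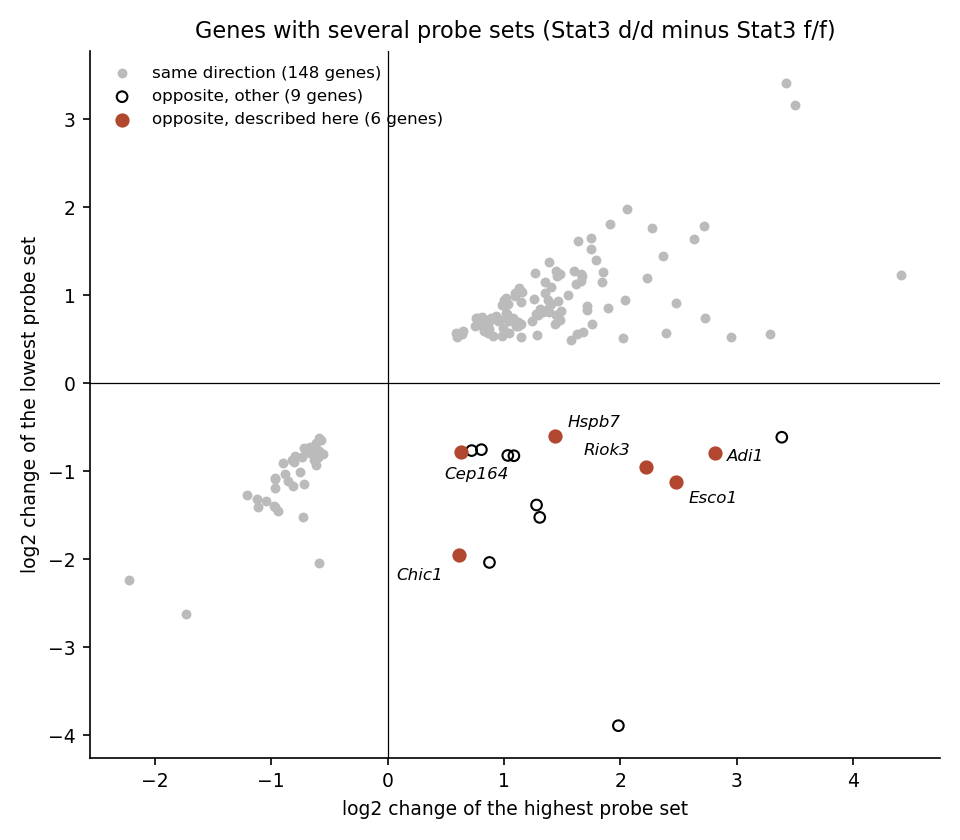
For each of the 163 genes with several probe sets, the log2 change (Stat3 d/d minus Stat3 f/f) of its highest probe set on the x axis against that of its lowest on the y axis. The 6 genes described here (red) and 9 others (open circles) lie in the lower right part of the plot, where the signs differ; the 148 genes with a single direction are grey.

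Few partners of the 6 genes were in the table, which holds selected probe sets only, so most of each pathway was not analysed here. Of 15 genes of methionine salvage and polyamine synthesis, 1 was in the table: Mri1, the isomerase earlier in the same pathway as Adi1, at 87.7 ± 10.2 in Stat3 d/d and 57.7 ± 4.79 in Stat3 f/f (log2 change 0.59, SE 0.17). Of 17 small heat shock proteins and their partners, Bag3, a co-chaperone of small heat shock proteins, was the one in the table, with 192 ± 12.3 in Stat3 d/d and 119 ± 17.2 in Stat3 f/f (log2 change 0.69, SE 0.17). For Riok3, 3 of 17 genes were in the table. Ifih1, which encodes MDA5, averaged 116 ± 1.32 in Stat3 d/d and 44.4 ± 9.42 in Stat3 f/f (log2 change 1.39, SE 0.19). Ddx58, which encodes the RNA sensor RIG-I, changed by 0.65 (SE 0.18) on its brightest probe set and by 1.12 on its other one. Irf3, a transcription factor downstream of both sensors, changed by -0.64 (SE 0.17). Nap1l2, a nucleosome assembly protein gene of the X-inactivation centre region, was the one of 12 genes of the Chic1 list in the table, and was dim, at 6.43 ± 0.49 in Stat3 d/d and 4.05 ± 1.08 in Stat3 f/f. Of 17 cohesin genes and 22 genes of distal appendages and ciliogenesis, 0 were in the table. All errors are SDs over 3 arrays, and each gene named here passed limma's test at an adjusted p of 0.05, as 100% of the table did.

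Leukocyte markers were higher in Stat3 d/d alongside the 7 higher probe sets. Of 12 markers 7 were in the table and all 7 were higher, among them Ptprc, the pan-leukocyte phosphatase, at 337 ± 76.2 in Stat3 d/d and 111 ± 32.1 in Stat3 f/f (SD, n = 3 each). Their summed intensity ranged from 486 to 780 over the Stat3 d/d arrays and from 159 to 259 over the Stat3 f/f arrays. No listed marker in the table was at 0, and of 5 red blood cell markers 0 were in the table. The part of these markers in the readings of the 6 genes was not tested. In whole-uterus RNA more cells of a type and more RNA per cell cannot be told apart.

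For each of the 13 probe sets, the probe set of another gene with the most similar profile over the 6 arrays was found. That opposed probe sets of a gene have different closest genes follows from their choice. The higher Esco1 probe set was closest to Fgl2 (Pearson's r = 0.998) and the lower one to Lrrc49 (0.993). The closest to the higher Riok3 probe set was Calb1 (0.998), and to the lower one 2610005L07Rik (0.998). For Adi1, 1438758_at was closest to Ifi47, an interferon-induced GTPase gene (0.998), 1438759_x_at to Pcm1 (0.997) and 1449076_x_at to Cebpb (0.995). For Hspb7 the closest were Pdzk1ip1 to the higher (0.997) and Ccnd1 to the lower probe set (0.996), and for Cep164 they were Fam241a (0.995) and Mmp3 (0.996). Those of Chic1 were Sdc2 (0.997) and Rbpms (0.986). The arrays form 2 groups and the table was selected on them, so r is high for most pairs: the median over all probe sets of the same direction was 0.79 to 0.92.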

How the data were processed

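Uterine RNA of 6 samples was turned into biotinylated cRNA and read on Affymetrix arrays (per the labels' protocols). The authors deposited 1 linear intensity per probe set and array; per the submitters' processing notes they come from RMA (background correction, quantile normalization and probe summary), with no version given. The return to a linear scale and the selection of 1382 probe sets are seen in the values only. Groups come from the source names and replicate numbers from the titles.

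Names come from the annotation of the platform, which gives 1 symbol for 1191 probe sets, several for 57 and none used here for 134. By gene ID, 1186 matched RefSeq's gene table of GRCm38.p6, and 0 symbols changed. The groups were fitted on log2(intensity + 1) with limma 3.58.1 in R 4.3.3 (lmFit, eBayes, no covariate, Benjamini-Hochberg over all 1382 probe sets) and the fit was tested on simulated data. A gene of a list was represented by its brightest probe set, and a gap by the brightest probe set of each direction. Named genes were the 6 genes, Stat3, the 3 other opposed genes with the largest gaps, list members in the table (up to 3 a list, by size of change), Abhd3 for its position, chosen after its value was seen, and for each probe set the gene of highest Pearson's r. Members and lists were chosen with earlier results of these data known. The number of arrays limits the precision. Figures were drawn with matplotlib 3.10.9.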

Additional observations from a re-analysis of the deposited data

How the results depend on the processing

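All 13 probe sets kept their direction under each alternative that gave a value: median centring, quantile normalization, no pseudocount, a pseudocount of 16, the replicate number as a block, and leaving out each array. Groups that do not overlap, as in all 13, fix the direction under the pseudocounts, the block and the leaving out of arrays, so nothing is read from those. Median centring lowered every change by 0.47, less than the smallest increase of the 13 (0.60). It could thus reverse none of them, and nothing is read from that either. Quantile normalization lowered the median change of the table by about as much, 0.45. The rescalings moved 12 of 13 changes by more than the spread between replicates, and a pseudocount of 16 moved 8. With a pseudocount of 16 the gap changes were 0.99 for Cep164, 1.54 for Chic1, 2.37 for Esco1, 1.29 for Hspb7 and 2.53 for Riok3. With the mean of all probe sets of a direction the gap of Adi1 was 2.50. Leaving out 1 array gave gap changes of 1.22 to 1.64 for Adi1, 1.32 to 1.58 for Cep164, 2.26 to 2.79 for Chic1, 3.43 to 3.78 for Esco1, 1.92 to 2.13 for Hspb7 and 3.05 to 3.29 for Riok3, and 1347 to 1377 probe sets past the threshold over the table.

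The replicate numbers 1 and 2 occur in both groups, but nothing says that they pair the samples: deviations of same-numbered arrays correlated at 0.09 and 0.03 over the table. With the replicate block the gap of Cep164 was 1.65, and 1284 probe sets of the table passed, against 1382 without it. Across all probe sets, 873 passed after median centring (48.3% of them higher) and 887 after quantile normalization (49.2% higher), against 1382 as deposited (67.4% higher). The number passing as lower was 451 in each case. Median centring lowered every change by the same amount, and quantile normalization lowered the median change. Leaving out probe sets with a mean intensity under 16 removed 1 of the 13, Hspb7 1421289_at; it is the only lower probe set of Hspb7, so that gene then has no opposed pair and no gap. The changes of the other 12 do not depend on this filter. Signal over background could not be checked in this table.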
